A study of Mus musculus with 8 samples.

Results

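Immediate early activation factors are transcription factors whose genes are switched on soon after a T cell is stimulated through its receptor, before new protein is made. The 10 genes described here are Egr1, Egr2 and Egr3 of the Egr family, Nr4a1, Nr4a2 and Nr4a3 of the Nr4a family, and Fos, Fosb, Fosl2 and Junb of the AP-1 family. They were taken by gene symbol from the platform's annotation, all 10 were measured, and they are 10 of 19505 named genes on the arrays. Where a gene had several probe sets, the set with the highest mean over the 8 arrays stood for it, which concerned Egr3 alone among these genes.

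The study measured gene expression on 8 one-colour arrays of spleen T cells (CD4 and CD8 cells together) from male wild-type C57BL/6 mice, isolated with a pan T cell kit. Of these, 4 arrays were from cells kept for 48 h with human beta-defensin-2 (hBD-2), an antimicrobial peptide that epithelia secrete, and 4 were from cells kept for 48 h with the vehicle, phosphate-buffered saline (PBS). Cells of both groups were stimulated throughout with anti-CD3/CD28 beads, so the PBS cells are activated too and no resting cells were compared. The labels name 4 mice without saying which array came from which mouse, and they give the hBD-2 amount as 60 µL/mL, so its mass concentration is unknown.

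Values are log2 expression values made by robust multi-array averaging (RMA), and a difference of 1 on this scale is a doubling. Fold changes are hBD-2 minus PBS on the log2 scale, with their standard error (SE), from a limma fit across all genes, and a gene was called changed at a Benjamini-Hochberg adjusted p under 0.05 over all 19505 genes. All 10 genes had a mean over the percentile 40 of gene means (4.74). All 11 T cell markers measured, Cd3e, Cd4 and Cd8a among them, were also at or above it, as were 5 of 6 B cell, 4 of 6 mast cell and basophil, 2 of 2 erythroid, 2 of 4 NK cell, 1 of 6 dendritic cell, 1 of 4 neutrophil and 0 of 5 macrophage markers. The interquartile range of the values on an array was 3.45 to 3.64 in hBD-2 arrays and 3.64 to 3.76 in PBS arrays. In bulk RNA, fewer cells of a type and less RNA per cell cannot be told apart.

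The Egr proteins are zinc finger factors induced through the Ras and MAP kinase pathway, and Egr2 and Egr3 are known in T cells for restraining activation. The Nr4a proteins are orphan nuclear receptors, and Nr4a1 is widely used as a reporter of signal strength at the T cell receptor. Fos and Jun proteins pair as AP-1, which binds together with NFAT at cytokine genes. Many of these transcripts are short-lived, so an array reads what the cells still make at the time of harvest.

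With hBD-2, 1 of the 10 genes changed, Nr4a1, which rose. The background was 4.46% of all genes called in either direction, 0.8% called higher and 3.66% called lower. The other members' log2 fold changes lay between -0.43 (Fosl2) and 0.40 (Fosb), and the median of the 10 was -0.11, beside 0.02 over all genes. An unadjusted p under 0.05 was found for 4 of the 10 genes, Nr4a1, Nr4a2, Fosb and Fosl2, and for 22.3% of all genes. The range and these counts read Egr3 from its brightest probe set. A different probe set of Egr3 gave -0.61 (95% interval -1.02 to -0.19 before adjustment) and the remaining set gave 0.27. The groups did not overlap for 2 of the 10, Nr4a1 and Fosb, both higher with hBD-2, beside 14.9% of all genes in either direction, 5.51% higher with hBD-2 and 9.36% lower. Within the Nr4a and AP-1 families the means did not all move the same way. Nr4a1 rose beside lower means of Nr4a2 and Nr4a3, and Fosb had a higher and Fosl2 a lower mean with hBD-2. Of these, only the change of Nr4a1 was called. No pair of genes of 1 family passed for unequal change (two-sided exact permutation test, smallest Benjamini-Hochberg adjusted p = 0.0686 over 12 pairs). With 4 arrays against 4 the smallest exact p is 0.0286, so a pair could pass only if many others also reached that p. A pair that did not pass is thus not shown to have changed equally.

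**Figure D1:**
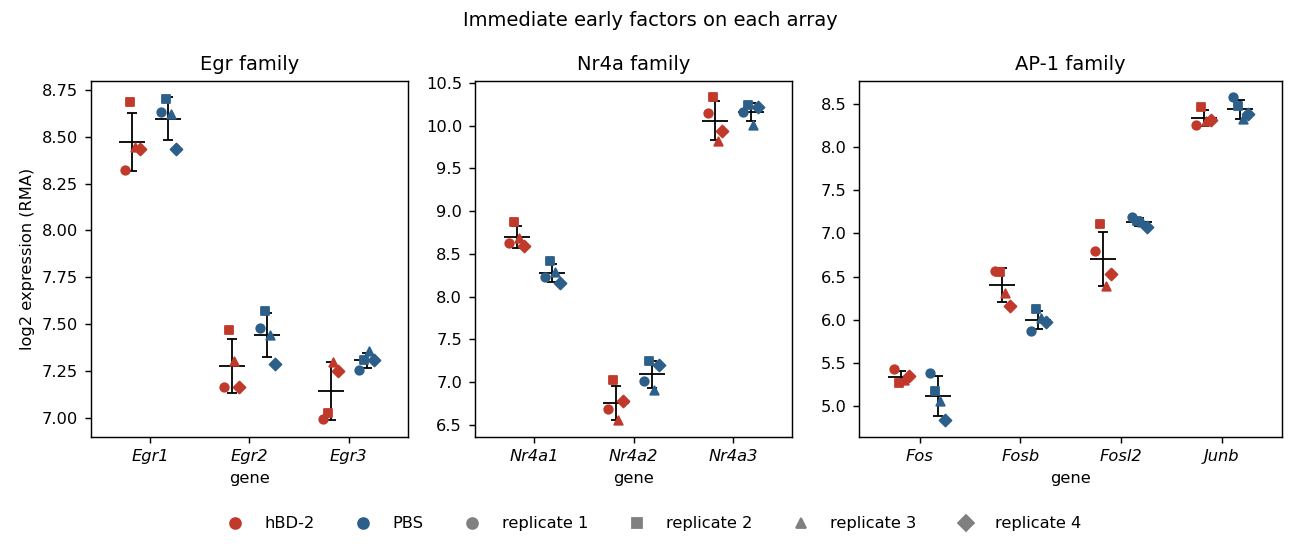
Log2 expression (RMA) of the 10 factors on each array, with hBD-2 arrays in red to the left and PBS arrays in blue to the right of each gene; marker shapes give the replicate number, and bars give the mean and SD of 4 arrays. Nr4a1 and Fosb were the genes whose hBD-2 arrays all lay above their PBS arrays, and levels of different genes come from different probe sets and are not to be compared.

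Nr4a1 is an orphan receptor also known as Nur77. Its log2 values were 8.62, 8.88, 8.69 and 8.60 on hBD-2 arrays 1 to 4, against 8.24, 8.42, 8.29 and 8.16 on PBS arrays 1 to 4. The lowest hBD-2 array lay 0.17 above the highest PBS array. Nr4a1 averaged 8.70 ± 0.127 with hBD-2 and 8.28 ± 0.110 with PBS (SD, n = 4 arrays each), a 1.34-fold rise (0.42 on the log2 scale, SE 0.0998, 95% interval 0.20 to 0.64, limma adjusted p = 0.0388). The log2 fold change was 0.52 with quantile normalization repeated (limma adjusted p = 0.0180) and 0.50 with each array's level-dependent trend removed (0.0201). The part of the arrays' unequal spread in the rise was not tested. The log2 fold change stayed between 0.36 and 0.47 when any 1 array was left out. The call was lost without hBD-2 replicate 2, 3 or 4 or without any 1 of the 4 PBS arrays (highest adjusted p = 0.110). Without hBD-2 replicates 3 and 4 together it was 0.47 (adjusted p = 0.153).

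Nr4a2, also known as Nurr1, had log2 values of 6.69, 7.02, 6.55 and 6.78 on the hBD-2 arrays, against 7.01, 7.25, 6.91 and 7.20 on the PBS arrays. The groups overlapped because hBD-2 replicate 2 lay above PBS replicates 1 and 3. The means were 6.76 ± 0.197 with hBD-2 and 7.09 ± 0.158 with PBS (SD, n = 4), a log2 fold change of -0.33 (SE 0.120, 95% interval -0.60 to -0.07 before adjustment, limma adjusted p = 0.134). Nr4a2 passed in none of the 16 alternative settings run (adjusted p from 0.0740 to 0.498).

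Nr4a3, also known as Nor1, had log2 values of 10.14, 10.33, 9.82 and 9.94 on the hBD-2 arrays, against 10.16, 10.25, 10.01 and 10.22 on the PBS arrays. The groups overlapped widely. The means were 10.06 ± 0.226 and 10.16 ± 0.106 (hBD-2 and PBS, SD, n = 4), and the log2 fold change of -0.10 had a 95% interval of -0.36 to 0.16 (limma adjusted p = 0.670). Its sign turned in 1 of 16 alternative settings, without hBD-2 replicates 3 and 4, and none gave a call.

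Whether the Nr4a genes changed by unequal amounts was tested on the log2 difference between pairs of them on each array. Nr4a1 minus Nr4a2 was 1.94, 1.86, 2.14 and 1.82 on the hBD-2 arrays, against 1.22, 1.17, 1.38 and 0.96 on the PBS arrays. Every hBD-2 array lay above every PBS array, and the mean difference was 0.75 higher in hBD-2 arrays (p = 0.0286 in the two-sided exact permutation test, n = 4 arrays each). Nr4a1 minus Nr4a3 was 0.52 higher with hBD-2, at -1.36 ± 0.171 against -1.88 ± 0.144 with PBS (SD, n = 4), and Nr4a2 minus Nr4a3 was lower, at -3.30 ± 0.124 against -3.07 ± 0.0691. The groups did not overlap in any of these 3 pairs, each with an exact permutation p of 0.0286, the smallest that 4 arrays against 4 can give. Over the 12 pairs of genes of 1 family that were compared, the Benjamini-Hochberg adjusted p of each of the 3 was 0.0686, not under 0.05. No pair could reach 0.05 alone, however unequal its change.

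**Figure D2:**
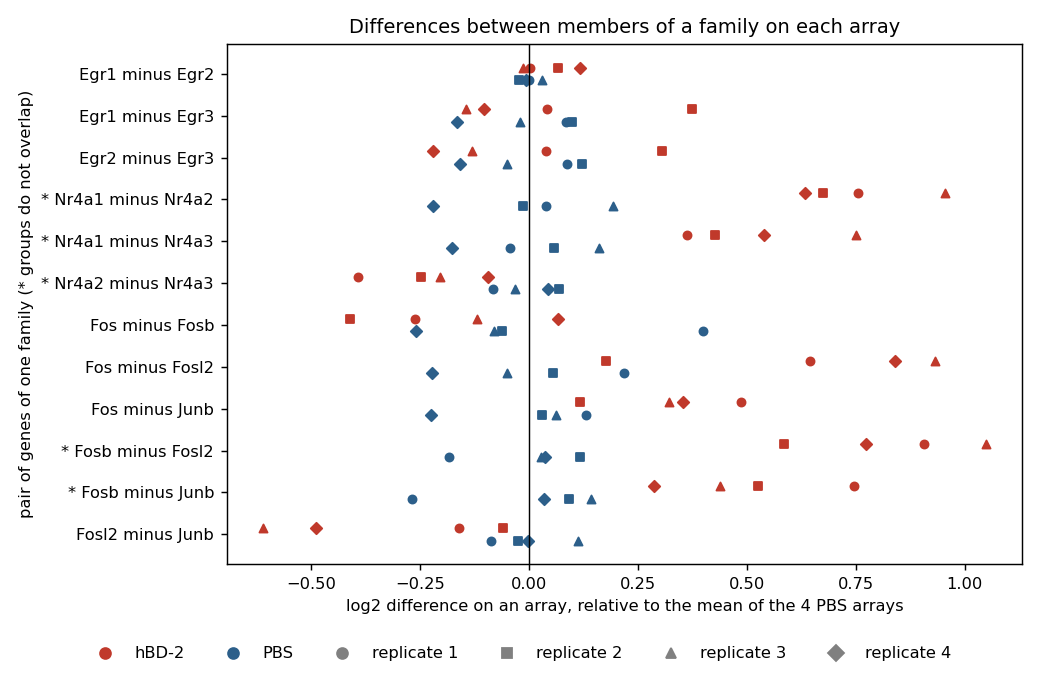
Log2 difference between pairs of genes of 1 family on each array, set against the mean of the 4 PBS arrays of that pair, with hBD-2 arrays in red above PBS arrays in blue and marker shapes for the replicate number. The 5 pairs marked with a star, 3 of the Nr4a family and 2 of the AP-1 family, had groups that did not overlap.

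The promoters of the Nr4a genes are shown because Nr4a1 was the called factor and the other 2 genes of its family were not called. RefSeq promoter windows on GRCm38.p6, which run from 250 bases before to 50 bases after a gene's start, were matched for 8 of the 10 genes, all but Egr1 and Egr3. Capitals mark matches to GCGNGGGCG, the motif bound by Egr proteins, on either strand.
Nr4a1 (chr15:101266596-101266895, plus strand): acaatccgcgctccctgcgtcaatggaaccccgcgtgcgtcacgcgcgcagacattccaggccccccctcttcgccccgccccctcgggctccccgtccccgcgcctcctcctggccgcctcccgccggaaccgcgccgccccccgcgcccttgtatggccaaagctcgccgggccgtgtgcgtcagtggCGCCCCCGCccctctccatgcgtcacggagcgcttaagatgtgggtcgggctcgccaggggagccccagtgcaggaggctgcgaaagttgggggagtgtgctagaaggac
Nr4a2 (chr2:57123954-57124253, minus strand): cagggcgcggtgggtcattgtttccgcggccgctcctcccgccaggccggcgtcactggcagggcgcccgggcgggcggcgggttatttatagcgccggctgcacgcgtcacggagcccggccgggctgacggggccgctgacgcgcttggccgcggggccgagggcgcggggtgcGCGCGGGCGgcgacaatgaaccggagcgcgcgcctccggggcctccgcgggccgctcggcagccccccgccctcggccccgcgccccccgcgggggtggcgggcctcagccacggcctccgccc
Nr4a3 (chr4:48045055-48045354, plus strand): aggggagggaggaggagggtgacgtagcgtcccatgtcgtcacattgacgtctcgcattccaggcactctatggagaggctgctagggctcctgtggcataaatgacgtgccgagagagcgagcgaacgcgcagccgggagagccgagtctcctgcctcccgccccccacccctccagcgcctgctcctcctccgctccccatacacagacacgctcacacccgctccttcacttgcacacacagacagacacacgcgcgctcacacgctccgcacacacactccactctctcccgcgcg

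The match in the Nr4a1 window begins 60 bases before the start, on the opposite strand, and the match in the Nr4a2 window begins 74 bases before the start. The Nr4a3 window holds no match. Of the 8 matched genes, which have 12 windows between them, 4 had the motif in 1 window each, Nr4a1, Nr4a2, Fosb and Fosl2. The motif was in 5.55% of all 32851 promoter windows, a share of windows and not of genes. The members' windows were rich in G and C, with a median of 64.7% beside 52.7% over all windows. Of the 13248 windows with at least as much G and C as the poorest member window (56%), 13.0% held the motif, a share counted after the matches were seen. These windows were not matched in G and C to the members' windows, which reached 81.7%. The letters show where the motif stands and not whether a factor binds there. None of the 12 windows of members held TGANTCA (AP-1), TGACGTCA (the full cAMP response element) or AAAGGTCA (the NR4A monomer site), which occurred in 7.81%, 1.79% and 1.51% of all windows. Only these exact letters were searched, so shorter or variant forms of the sites were not counted and may be present.

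None of the 4 AP-1 genes was called changed by limma, and 2 of the 4 had an unadjusted p under 0.05. Fosb, a partner of Jun proteins, had log2 values of 6.57, 6.56, 6.31 and 6.16 on the hBD-2 arrays, against 5.87, 6.12, 6.02 and 5.98 on the PBS arrays. All hBD-2 arrays lay above all PBS arrays, by as little as 0.04. Fosb averaged 6.40 ± 0.198 with hBD-2 and 6.00 ± 0.105 with PBS (SD, n = 4), a log2 fold change of 0.40 (SE 0.113, 95% interval 0.15 to 0.65 before adjustment, limma adjusted p = 0.0702). Its adjusted p was 0.0334 when genes under the percentile 40 of mean level were left out and 0.0446 with a variance trend and robust estimation, so its call rests on that choice.

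Fosl2, also known as Fra-2, had log2 values of 6.80, 7.11, 6.39 and 6.53 on the hBD-2 arrays, against 7.19, 7.14, 7.13 and 7.08 on the PBS arrays. On 3 hBD-2 arrays it lay below every PBS array, and hBD-2 replicate 2 lay among them. The means were 6.71 ± 0.316 with hBD-2 and 7.13 ± 0.0466 with PBS (SD, n = 4), a log2 fold change of -0.43 (SE 0.139, 95% interval -0.73 to -0.12 before adjustment, limma adjusted p = 0.103). Without hBD-2 replicate 2 it fell by 0.56 on the log2 scale (adjusted p = 0.0280), and without hBD-2 replicates 3 and 4 together the value was -0.18 (adjusted p = 0.528).

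Fos, the first known member of the family, had log2 values of 5.42, 5.26, 5.30 and 5.35 on the hBD-2 arrays, against 5.39, 5.18, 5.06 and 4.83 on the PBS arrays. The PBS arrays spread more widely, and the highest of them lay within the hBD-2 range. The log2 fold change was 0.22 (95% interval -0.04 to 0.48, limma adjusted p = 0.297). Junb, which also restrains other Jun proteins, had log2 values of 8.26, 8.47, 8.31 and 8.32 on the hBD-2 arrays, against 8.58, 8.47, 8.32 and 8.38 on the PBS arrays. Its groups overlapped, and its log2 fold change of -0.10 had a 95% interval of -0.31 to 0.11 (limma adjusted p = 0.576).

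The pair of AP-1 genes with the most unequal change was Fosb and Fosl2. Fosb minus Fosl2 was -0.23, -0.55, -0.09 and -0.36 on the hBD-2 arrays, against -1.32, -1.02, -1.11 and -1.10 on the PBS arrays. The groups did not overlap, and the mean difference was 0.83 higher in hBD-2 arrays (p = 0.0286 in the two-sided exact permutation test, adjusted p = 0.0686 over 12 pairs, n = 4). Fosb minus Junb was 0.50 higher with hBD-2, with the same p values and no overlap. The other 4 AP-1 pairs overlapped, with exact permutation p from 0.0571 to 0.314. In all, the groups did not overlap in 5 of the 12 pairs (41.7%), and the 12 pairs share genes with each other. The share was 20.2% over all pairs made of 1 of the 10 genes and any other gene. Of the 5 pairs, all but Nr4a2 minus Nr4a3 hold Nr4a1 or Fosb, whose own groups did not overlap. The 20.2% is over all 10 genes, so the shares do not measure an excess within families.

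The windows of Fosb and Fosl2, the AP-1 pair with the largest difference in change, are shown with the Egr motif in capitals. It begins 50 bases before the start of Fosb and 79 bases before the start of Fosl2.
Fosb (chr7:19309996-19310295, minus strand): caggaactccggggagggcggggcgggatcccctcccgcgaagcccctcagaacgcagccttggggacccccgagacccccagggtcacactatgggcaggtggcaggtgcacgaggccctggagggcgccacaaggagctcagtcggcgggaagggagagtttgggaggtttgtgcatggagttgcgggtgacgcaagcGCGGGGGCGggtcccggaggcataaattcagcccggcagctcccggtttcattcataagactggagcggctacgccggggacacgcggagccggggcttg
Fosl2 (chr5:32136222-32136521, plus strand): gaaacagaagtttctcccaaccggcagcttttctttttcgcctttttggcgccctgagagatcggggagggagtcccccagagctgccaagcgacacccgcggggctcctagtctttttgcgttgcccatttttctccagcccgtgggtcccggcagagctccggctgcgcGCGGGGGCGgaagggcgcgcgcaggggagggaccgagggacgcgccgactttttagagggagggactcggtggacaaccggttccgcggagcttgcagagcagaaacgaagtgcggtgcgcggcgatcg

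None of the 3 Egr genes was called changed by limma, and none had an unadjusted p under 0.05 on the probe sets used for the counts. Another probe set of Egr3, given below, had a 95% interval of -1.02 to -0.19 before adjustment. Egr1 had log2 values of 8.32, 8.69, 8.44 and 8.43 on the hBD-2 arrays, against 8.63, 8.70, 8.62 and 8.43 on the PBS arrays. The ranges overlapped, and the log2 fold change of -0.12 had a 95% interval of -0.35 to 0.11 (limma adjusted p = 0.525). Egr2 had log2 values of 7.17, 7.47, 7.30 and 7.16 on the hBD-2 arrays, against 7.48, 7.57, 7.44 and 7.29 on the PBS arrays. Its ranges overlapped as well, and the log2 fold change was -0.17 (95% interval -0.39 to 0.06, limma adjusted p = 0.365). Egr1 minus Egr2 stayed within 1.14 to 1.27 on the hBD-2 arrays and within 1.13 to 1.18 on the PBS arrays, and the difference of their changes was 0.04 (exact permutation test, two-sided, p = 0.257, n = 4).

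Egr3 was read by 3 probe sets, which disagreed. The brightest, used above and in all counts, carries an identifier that marks it as unmapped on the platform. It had log2 values of 6.99, 7.02, 7.30 and 7.25 on the hBD-2 arrays, against 7.25, 7.31, 7.35 and 7.31 on the PBS arrays, a log2 fold change of -0.17 (95% interval -0.38 to 0.05, limma adjusted p = 0.344). The probe set with a mapped identifier had log2 values of 4.61, 5.62, 5.00 and 5.13 on the hBD-2 arrays, against 5.45, 6.01, 5.75 and 5.57 on the PBS arrays. On it, 3 hBD-2 arrays lay below every PBS array, and the log2 fold change was -0.61 (SE 0.190, 95% interval -1.02 to -0.19 before adjustment, limma adjusted p = 0.0931). The other unmapped probe set had log2 values of 6.71, 7.03, 7.25 and 7.28 on the hBD-2 arrays, against 6.83, 6.73, 6.78 and 6.85 on the PBS arrays, which put the change at 0.27 on the log2 scale (adjusted p = 0.235 in limma). No probe set of Egr3 passed the threshold, and no direction can be given for the gene. In both groups replicate 2 was the highest array of the mapped probe set, as it was for Egr1 and Egr2, and it was the highest of neither unmapped set in either group.

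**Figure D3:**
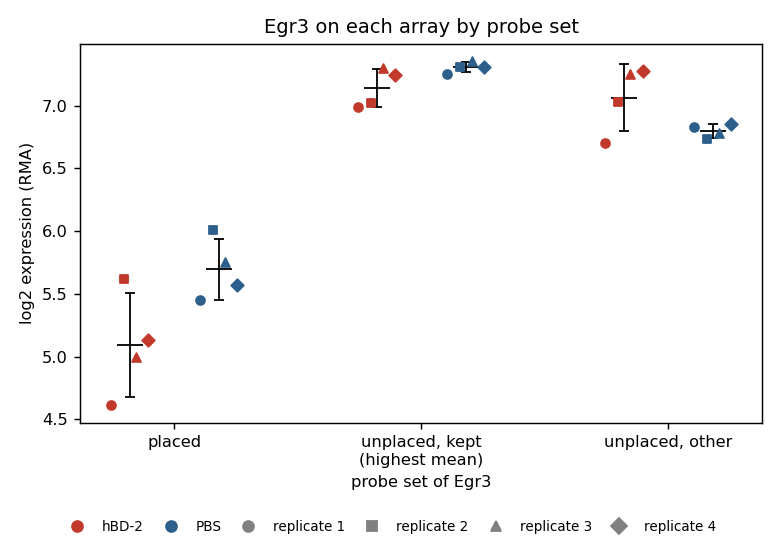
Log2 expression (RMA) of the 3 probe sets of Egr3 on each array, with hBD-2 arrays in red to the left and PBS arrays in blue to the right; marker shapes give the replicate number, and bars give the mean and SD of 4 arrays ("placed" is the mapped probe set). The mapped probe set was lower with hBD-2 in mean, at 5.09 against 5.70 with PBS, and the other unmapped set was higher, at 7.06 against 6.80 with PBS.

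Egr2 had 5 promoter windows in the RefSeq table, some of which overlap, and 4 of them held a CArG box, the site of serum response factor, which induces many immediate early genes. The windows that overlap each other share the same box, so the 4 windows are not 4 separate sites. The CArG box was found in 1.63% of all windows and in no window of another matched member. Egr1 and Egr3 had no window, and boxes more than 250 bases before a start were not searched. Of the windows, 2 have a box that begins 72 bases before the start. The one further along the chromosome is shown, with the box in capitals, and which box acts in these cells was not tested.
Egr2 (chr10:67537619-67537918, plus strand): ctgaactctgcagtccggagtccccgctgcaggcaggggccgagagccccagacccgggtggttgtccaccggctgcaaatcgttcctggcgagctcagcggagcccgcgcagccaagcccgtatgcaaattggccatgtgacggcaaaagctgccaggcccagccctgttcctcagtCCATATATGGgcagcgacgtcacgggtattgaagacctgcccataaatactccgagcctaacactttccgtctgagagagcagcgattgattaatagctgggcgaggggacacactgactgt

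**Figure D4:**
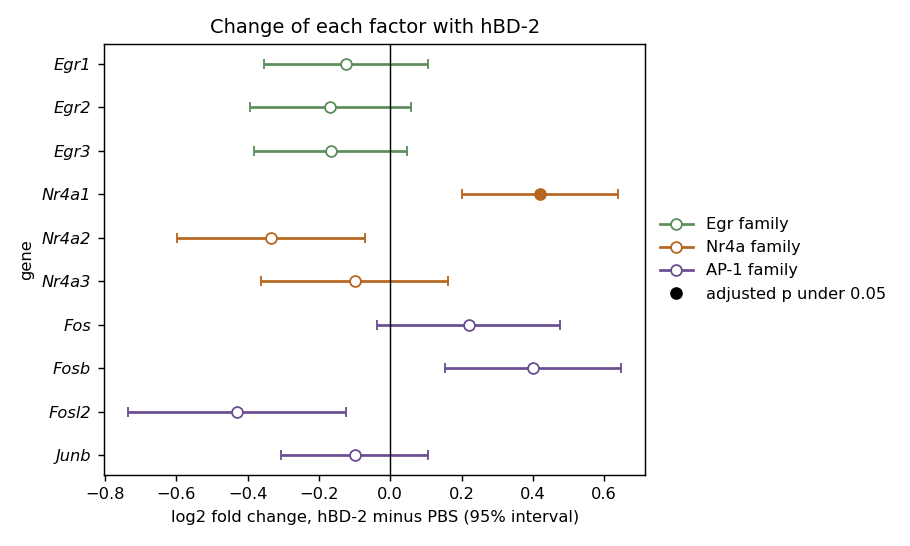
Log2 fold change of each factor, hBD-2 minus PBS, with its 95% interval from the limma fit (not adjusted for the number of genes), coloured by family. The filled point is Nr4a1, at 0.42, the gene past an adjusted p of 0.05, and the intervals of Nr4a2, Fosb and Fosl2 also leave out 0. Egr3 is shown from its brightest probe set.

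Replicate 2 was often the highest array of its group. Among hBD-2 arrays, replicate 2 was the highest for 7 of the 10 genes, and among PBS arrays replicate 2 was the highest for 6 of the 10. Nr4a1, Nr4a2, Nr4a3, Egr1 and Egr2 had their highest value on replicate 2 in both groups. All measured B cell markers but Cd79b were higher on replicates 2 and 4 than on 1 and 3 in both groups. Cd79a was 5.23, 7.86, 4.80 and 7.76 on hBD-2 arrays 1 to 4, and 4.50, 6.60, 4.85 and 6.84 on PBS arrays 1 to 4. The part of B cells in the values of the 10 genes was not tested. The named genes whose array profile came closest to that of Nr4a1 were Ei24, a p53-induced gene, Cnr2, a cannabinoid receptor, and Smad1, a transducer of bone morphogenetic protein signals. Their mean absolute difference from Nr4a1, after each gene was centred over the 8 arrays, was 0.0433, 0.0521 and 0.0571 log2 units. Their own log2 fold changes were 0.45, 0.35 and 0.46, near that of Nr4a1 because the genes were chosen by profile over the same 8 arrays.

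Other AP-1 and related leucine zipper genes rose in 2 of 11 measured members and none fell, with a median of 0.02, the same as over all genes. Of all genes 0.8% were called higher and 3.66% lower. Fosl1, also known as Fra-1, had log2 values of 7.25, 7.42, 7.94 and 7.78 on the hBD-2 arrays, against 6.98, 7.10, 7.07 and 6.90 on the PBS arrays. The groups did not overlap, and hBD-2 replicates 3 and 4 were the highest. It rose by 0.58 on the log2 scale (SE 0.144, adjusted p = 0.0441 in limma), but at 0.32 without hBD-2 replicates 3 and 4 together it did not pass (adjusted p = 0.270). Its call was also lost without hBD-2 replicate 2, 3 or 4 or any 1 PBS array (highest adjusted p = 0.119). Jdp2, a repressor that pairs with Jun, rose 1.41-fold, at 6.47 ± 0.205 with hBD-2 and 5.97 ± 0.103 with PBS (SD, n = 4, limma adjusted p = 0.0351), a call lost without hBD-2 replicate 2 or 3 or any 1 PBS array (highest adjusted p = 0.105). Jun itself stood at 0.30 on the log2 scale (adjusted p = 0.107 in limma) with groups that did not overlap.

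Of 16 other immediate early genes, 1 rose and 1 fell, with a median of 0.09. Over all genes 0.8% rose, 3.66% fell and the median was 0.02. Ier3, a gene that modulates survival under stress, had log2 values of 5.48, 5.90, 5.60 and 5.49 on the hBD-2 arrays, against 7.04, 7.08, 6.61 and 6.27 on the PBS arrays. No hBD-2 array reached the lowest PBS array. Ier3 fell by 1.13 on the log2 scale, or 2.19-fold (SE 0.174, limma adjusted p = 0.00494), and kept its call without any 1 array (highest adjusted p = 0.0217). Without hBD-2 replicates 3 and 4 together its log2 fold change was -1.06 and the call was lost (limma adjusted p = 0.101). Nfkbia, the inhibitor of NF-kB that NF-kB itself induces, rose 1.32-fold, at 8.79 ± 0.0793 with hBD-2 and 8.38 ± 0.0588 with PBS (SD, n = 4, limma adjusted p = 0.0266). That call was lost without hBD-2 replicate 3 or 4 or PBS replicate 1, 2 or 4 (highest adjusted p = 0.0842). Gadd45b, a stress-induced gene, stood at 0.40 on the log2 scale (adjusted p = 0.0700 in limma), and at an adjusted p of 0.0464 to 0.0470 with the repeated normalizations.

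No inducer, promoter-binding factor or feedback inhibitor on the lists passed the threshold. Of all genes 4.46% passed it, and 22.3% had an unadjusted p under 0.05. Of 16 feedback inhibitors and Egr co-repressors, 0 passed with limma and 2 had an unadjusted p under 0.05 (median -0.12), with Spred2, Dusp6 and Nab2 at -0.22, -0.24 and -0.27. These are a Ras pathway inhibitor, an ERK phosphatase and a co-repressor of Egr proteins. Of 8 measured MAP kinase pathway genes, 0 passed and 1 had an unadjusted p under 0.05 (median 0.00098), and Map2k1, the kinase MEK1, was at -0.33 (limma adjusted p = 0.0878). Mapk14 and Mapk8, the kinases p38 alpha and JNK1, were at -0.12 and 0.16. Of 13 factors that bind immediate early promoters, 0 passed and 5 had an unadjusted p under 0.05 (median -0.03), among them Nfatc2 at -0.33, Creb1 at 0.25 and Mrtfb, a co-activator of serum response factor, at -0.36. Map2k1 and Nfatc2 passed with the variance trend (adjusted p = 0.0273 and 0.0173) and with genes under the percentile 40 left out (0.0408 and 0.0334). Mrtfb and Creb1 passed with the variance trend (0.0294 and 0.0479), and Creb1 also with quantile normalization repeated (0.0494).

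**Figure D5:**
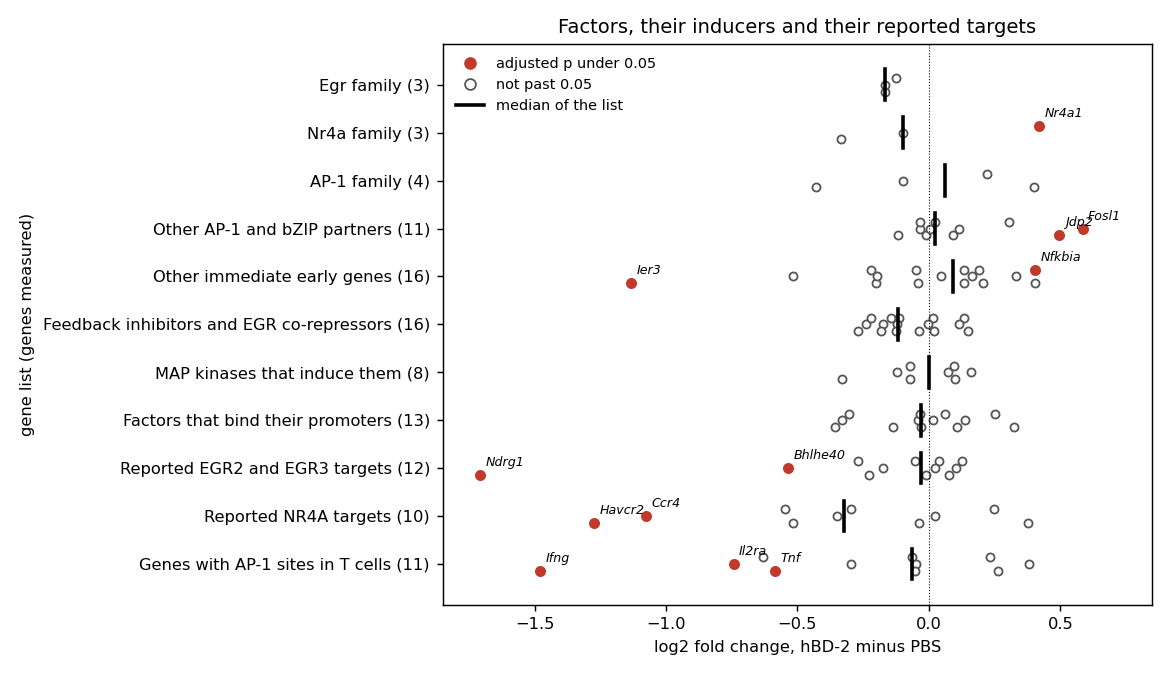
Log2 fold change, hBD-2 minus PBS, of each measured gene in the 3 families and in 8 lists of related genes, with filled points for genes at an adjusted p under 0.05 and a bar at each list's median. Calls among the reported targets were all lower with hBD-2, from -1.71 (Ndrg1) to -0.53 (Bhlhe40), while the lists of inducers and feedback inhibitors hold no filled point.

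Genes reported as targets of these factors were looked at as lists drawn up from general knowledge, and none of the values shows that a factor acts on them. The lists were chosen with earlier results of these data known. Of 12 reported Egr2 and Egr3 targets, 2 fell (3.66% of all genes did), with a median of -0.03 (0.02 over all genes). These were Ndrg1, also a hypoxia-responsive gene, at 8.10 ± 0.253 with hBD-2 and 9.81 ± 0.0214 with PBS (SD, n = 4, 3.27-fold lower, limma adjusted p = 5.36e-05), and Bhlhe40, a factor linked to cytokine output, 1.45-fold lower (limma adjusted p = 0.0442). The call of Bhlhe40 was lost under each repeated normalization (adjusted p 0.0573 to 0.0615) and without hBD-2 replicate 3 or 4 or any 1 PBS array (highest adjusted p = 0.123). Nab2, the co-repressor named above, was the next by p, at -0.27. Cblb and Dgka, known brakes on T cell receptor signalling, had log2 fold changes of 0.10 and 0.07 and did not pass.

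Of 10 reported Nr4a targets, 2 fell, with a median of -0.32, and 7 had an unadjusted p under 0.05. Over all genes 3.66% were called lower, the median was 0.02 and 22.3% had an unadjusted p under 0.05. Havcr2, the inhibitory receptor TIM-3, was at 3.88 ± 0.288 with hBD-2 and 5.15 ± 0.158 with PBS (SD, n = 4), and Ccr4, a chemokine receptor, at 3.89 ± 0.436 and 4.97 ± 0.338. Both hBD-2 means lay near the arrays' lower quartiles, 3.68 to 3.78 on hBD-2 arrays and 3.62 to 3.69 on PBS arrays, where RMA values flatten. The call of Ccr4 was lost without PBS replicate 1 or 2 (highest adjusted p = 0.0516). Tigit, Irf4 and Pdcd1 had log2 fold changes of -0.55, -0.52 and -0.35 and Ikzf2 one of 0.38, none past the threshold.

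Of 11 genes with AP-1 sites known in T cells, 3 fell, Ifng, Il2ra and Tnf, with a median of -0.07 and 7 members at an unadjusted p under 0.05. The shares over all genes were 3.66% called lower and 22.3% at an unadjusted p under 0.05, with a median of 0.02. Ifng, interferon gamma, fell 2.78-fold and kept its call without any 1 array. Il2ra fell by 0.74 and Tnf by 0.59 on the log2 scale. Both lost their calls without hBD-2 replicate 2, 3 or 4 or PBS replicate 1, 2 or 4 (highest adjusted p = 0.0977 for Il2ra and 0.117 for Tnf), and Tnf also under each repeated normalization (0.0563 to 0.0601). Il13 stood at 0.38 on the log2 scale (adjusted p = 0.0729 in limma) and Il3 at -0.63 (adjusted p = 0.0863 in limma), each with groups that did not overlap. Il2 and Csf2 were at 0.23 and -0.07, and both, like Il3, lay under the percentile 40 of level.

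Some markers of other cells and of handling differed between the groups, beside 0.8% of all genes called higher and 3.66% called lower. Of 6 mast cell and basophil markers, 2 rose, Cpa3 (0.98 on the log2 scale) and Fcer1a (0.57), and the summed level of the 6 on the linear scale was 168 to 277 on hBD-2 arrays and 133 to 143 on PBS arrays. Cpa3 kept its call without any 1 array (highest adjusted p = 0.0490) but lost it without hBD-2 replicates 3 and 4 together (limma adjusted p = 0.0977). Fcer1a lost it with quantile normalization repeated (adjusted p = 0.0538) and without hBD-2 replicate 4 or PBS replicate 1, 2 or 4 (highest adjusted p = 0.0940). The 6 B cell markers, of which none passed with limma and none had an unadjusted p under 0.05, summed to 163 to 566 on hBD-2 arrays and 175 to 347 on PBS arrays. Of 5 heat shock genes used as a view of handling, 2 fell, Hsph1 (by 0.65 on the log2 scale) and Hsp90aa1 (by 0.51), and the summed level was 1698 to 2120 on hBD-2 arrays and 2368 to 2735 on PBS arrays. Both calls were lost without hBD-2 replicate 3 or 4 or PBS replicate 1, 2 or 4 (highest adjusted p = 0.0652 for Hsph1 and 0.0711 for Hsp90aa1). Hspa1a and Hspa1b of the same list stood at 0.31 each and Dnajb1 at -0.28, none past the threshold. The 11 T cell markers summed to 14940 to 15749 on hBD-2 arrays and 14964 to 15766 on PBS arrays, with none called by limma and 1 at an unadjusted p under 0.05. In 5 macrophage markers 1 fell, Itgam, at sums of 71.6 to 100.3 on hBD-2 arrays and 75.1 to 95.9 on PBS arrays. Its call was lost without any 1 array other than PBS replicate 1 (highest adjusted p = 0.126). Cd14 and Lyz2 of that list had log2 fold changes of 0.32 and 0.52 and did not pass, and the groups did not overlap for Cd14. Klf1, 1 of the 2 erythroid markers measured, stood at 0.42 on the log2 scale (adjusted p = 0.0441 in limma), with sums of the list of 62.2 to 76.7 on hBD-2 arrays and 53.0 to 62.3 on PBS arrays. It was called in 3 of 16 alternative settings, missing the threshold under each repeated normalization (adjusted p 0.0530 to 0.0552), with the variance trend (0.0533) and without any 1 array other than hBD-2 replicate 1 (highest 0.119). The sums of NK cell markers were 411 to 519 on hBD-2 arrays and 499 to 609 on PBS arrays, and those of dendritic cell markers 89.2 to 112.5 and 78.5 to 96.3. The neutrophil sums were 70.4 to 98.3 and 70.9 to 75.6. No marker was at 0, since RMA values have a floor above it. The part of other cells and of handling in the values of the 10 factors was not tested.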

How the data were processed

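Gene expression of 8 samples was measured on one-colour arrays. The authors deposited log2 values for 22203 probe sets on 8 arrays in 1 table, made with oligo and RMA per the submitters' processing notes. No version of either tool is given in the sources used here. Medians per array were 5.35 to 5.42 for hBD-2 and 5.30 to 5.38 for PBS, and the number of arrays limits the precision. RMA flattens low signals, so changes of dim genes are understated.

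The platform table gave 1 gene symbol for 19572 probe sets, several for none, and did not list 2631. For 55 genes with several sets the brightest on average was kept, leaving 19505 genes, none removed for being dim. hBD-2 was compared with PBS in limma 3.58.1 (R 4.3.3; lmFit and eBayes, no block), two-sided, with Benjamini-Hochberg adjustment. The fit was tested on simulated data. Pairs of genes of 1 family were compared by exact permutation tests over arrays.

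The members and lists were chosen with earlier results of these data known. Of 171 list entries, 156 were measured. From each list the text names the members past the threshold and, with fewer than 3, the next by p up to 3, and marker lists of cells are otherwise given as counts. For each changed factor it names the 3 genes at or above the percentile 40 with the closest centred profile. Batf, Cd69, Fasl, Irf4 and Nab2 stand in 2 lists each. Genes named outside this rule (Cblb, Cd14, Cd3e, Cd4, Cd8a, Csf2, Dgka, Hspa1a, Hspa1b, Il13, Il2, Il3, Ikzf2, Lyz2, Irf4 and Pdcd1) were picked with values in view. The labels do not say that replicates with the same number share a mouse, so the p-values measure the spread between these samples. Alternatives were 3 repeated normalizations, a replicate block, a variance trend, a filter on dim genes, all probe sets, arrays left out, and, chosen after seeing the data, the other probe sets of Egr3. Promoter sequences are from RefSeq (GRCm38.p6).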

Additional observations from a re-analysis of the deposited data

How the results depend on the processing

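Nr4a1 stayed the only called factor with each of 3 repeated normalizations, with all probe sets tested and with Egr3 read from either other probe set, and its log2 fold change was positive in all 16 planned settings. With a variance trend and robust estimation 3 factors were called (Nr4a1, Fosb and Fosl2), with genes under the percentile 40 left out 2 (Nr4a1 and Fosb), and without hBD-2 replicates 3 and 4 together 0. With 1 array left out, 0 to 1 were called, the 1 being Nr4a1 without hBD-2 replicate 1 and Fosl2 without hBD-2 replicate 2. Over all genes 869 were called (156 higher and 713 lower, 82.0% lower), against 2033 with the variance trend, 1541 with the filter, 128 without hBD-2 replicates 3 and 4, and 312 to 1396 with 1 array left out (1396 without hBD-2 replicate 1, 390 without 3, 363 without 4, and 312, 338 and 373 without PBS replicate 1, 2 or 4). The share lower was 69.7% with quantile normalization repeated (227 higher and 521 lower). Deviations of same-numbered arrays from their group means correlated across genes at 0.27, 0.13, 0.25 and -0.02 (numbers 1 to 4), and 3 of 4 hBD-2 arrays correlated best with their own number. Number 4 did not, and no label gives a pairing, so whether the numbers pair the samples cannot be told. The main fit has no block. By number 1 to 4, Nr4a1 differed by 0.39, 0.46, 0.40 and 0.43, and Nr4a2 by -0.33, -0.23, -0.36 and -0.42. Egr1 and Nr4a3 changed sign between numbers. With the replicate block 857 genes and 1 factor (Nr4a1, limma adjusted p = 0.0372) were called, and Jdp2, Fcer1a and Klf1 lost their calls (adjusted p = 0.0542, 0.0575 and 0.0684). By number, 8 pairs of factors had 1 sign in all 4 numbers, a criterion other than overlap. Pairs without overlap numbered 5, 4 with quantile normalization repeated, and 5 to 8 with 1 array left out, where fewer arrays can overlap. Causes of the other moves were not tested.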
